A study of Mus musculus with 8 samples.

Results

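A set of 10 genes of T cell restraint and exhaustion were followed in the livers of mice with diet-induced steatohepatitis (NASH) and fibrosis. They were taken by symbol from the 55450 genes of the count matrix. The 10 genes were the inhibitory receptor genes Pdcd1, Lag3, Havcr2, Tigit and Ctla4, the transcription factor genes Tox and Eomes, the ectoenzyme gene Entpd1, and Cd274 and Pdcd1lg2, which encode PD-L1 and PD-L2, the ligands of PD-1. All 10 had at least 1 unique molecular identifier (UMI, the count of 1 captured mRNA molecule) in the gated T cells. The livers came from 8 wild-type C57BL/6 mice. The 2 control mice received a normal diet and water. The 3 HFD+F+CCl4 mice received a high-fat diet and a fructose solution, the 3 WD+F+CCl4 mice a western diet and the same solution, and both models had weekly injections of the hepatotoxin CCl4 into the peritoneum. The labels give neither the age nor the sex of the mice. After perfusion, enzymatic dissociation and removal of dead cells, unsorted suspensions were sequenced with a 10x 3′ kit, 1 library per mouse.

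Inhibitory receptors are induced on T cells by antigen and dampen further signalling, and they decline again when the antigen is cleared. In chronic infection and in tumours CD8 T cells keep several of them at once, a state called exhaustion that depends on the factor TOX. PD-1, encoded by Pdcd1, is engaged by PD-L1 and PD-L2 on antigen-presenting cells, macrophages and stromal cells. CTLA-4 competes with the co-stimulator CD28 for CD80 and CD86 and is abundant in regulatory T cells. LAG-3 binds MHC class II, TIM-3 (Havcr2) is also a myeloid receptor, TIGIT binds the poliovirus receptor CD155, and CD39 (Entpd1) degrades extracellular ATP.

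The filters left 80474 of 88581 barcodes, and cells were gated on marker UMIs. Levels are given as CPM, the UMIs of a gene over all UMIs of the gated cells of 1 mouse, scaled to 1000000. T cells carried at least 2 UMIs of Cd3d, Cd3e, Cd3g and Trac, and myeloid cells at least 2 of a list led by Csf1r, Adgre1, Cd68 and Clec4f, each without B cell markers or the core markers of the other class. There were 7645 T cells, between 210 and 2887 per mouse, and 39721 myeloid cells, of which the 2 control livers gave 503 and 222. Markers that the gates did not use were read in both classes. Trbc2, Cd247 and Lck summed to 1387 to 3217 CPM in T cells and to 2.53 to 205 CPM in myeloid cells. Lyz2, Fcer1g, C1qa and Ctss summed to 14186 to 20399 CPM in myeloid cells and to 441 to 1970 CPM in T cells. The part of such myeloid mRNA in the T cell levels of Cd274, Entpd1 and Havcr2 was not tested. Over all kept cells the control libraries had medians of 2397 and 992.5 UMIs per cell, against 3159 to 4278 in the NASH libraries. Within the gated classes only control replicate 2 was shallower. The control medians were 2825 and 1039 UMIs in T cells, against 1914 to 2693 in the NASH mice. In myeloid cells they were 4505 and 953, against 3511 to 5705. Free hepatocyte RNA moved with the groups. The mRNAs of 6 hepatocyte genes led by Alb summed to 2802 and 3593 CPM in control T cells and to 140 to 1319 CPM in NASH T cells. In unsupervised clustering, 4466 of the 4559 cells of 1 T cell cluster came from the controls, and 6373 of the 6609 cells of another came from the NASH mice. The part of these differences in the values below was not tested. Any 2 of the libraries shared between 8 and 46 barcode sequences.

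Pdcd1, Lag3, Ctla4, Tox and Eomes were higher in T cells than in myeloid cells of these livers. Cd274, Entpd1 and Havcr2 were higher in myeloid cells in the fit over all mice, though not in each mouse. By the levels given further below, Cd274 was higher in the T cells of control replicate 1. Havcr2 was higher in the T cells of HFD+F+CCl4 replicates 2 and 3. NK cells without CD3 and plasmacytoid dendritic cells belonged to neither class. In a test with the mouse as a block over T cell and myeloid sums of the 8 mice, 9 of the 10 genes passed the count filter, 5 were higher in T cells, 3 were higher in myeloid cells and 1 did not pass (edgeR quasi-likelihood test, Benjamini-Hochberg). The 2 classes differ widely, and 33.5% and 33.9% of all 10874 genes tested were called higher and lower in T cells. The differences were 8.43 ± 0.34 (log2, SE) for Tox, 7.94 ± 0.30 for Ctla4 and 7.93 ± 0.59 for Eomes. They were 7.14 ± 0.43 for Pdcd1 and 4.58 ± 0.63 for Lag3, and all 5 were higher in T cells. Each SE here and below is the size of the log2 difference over the square root of its F statistic. It restates the test and is not a separate estimate of spread. Cd274 was lower in T cells by -1.20 ± 0.24 (adjusted p = 0.000854) and Entpd1 by -0.64 ± 0.14 (adjusted p = 0.00187). Havcr2 was lower by -1.54 ± 0.62 (adjusted p = 0.0446), a call that was lost without WD+F+CCl4 replicate 1 (adjusted p = 0.0992), WD+F+CCl4 replicate 2 (adjusted p = 0.0979), HFD+F+CCl4 replicate 1 (adjusted p = 0.0774), control replicate 1 (adjusted p = 0.0836) or control replicate 2 (adjusted p = 0.0579). Pdcd1lg2 differed by 0.54 ± 0.27 (adjusted p = 0.0939). Without HFD+F+CCl4 replicate 3 its difference was 0.73 and it was called (adjusted p = 0.0424). Tigit did not reach the count filter and had 6 UMIs in all NASH myeloid cells.

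**Figure D1:**
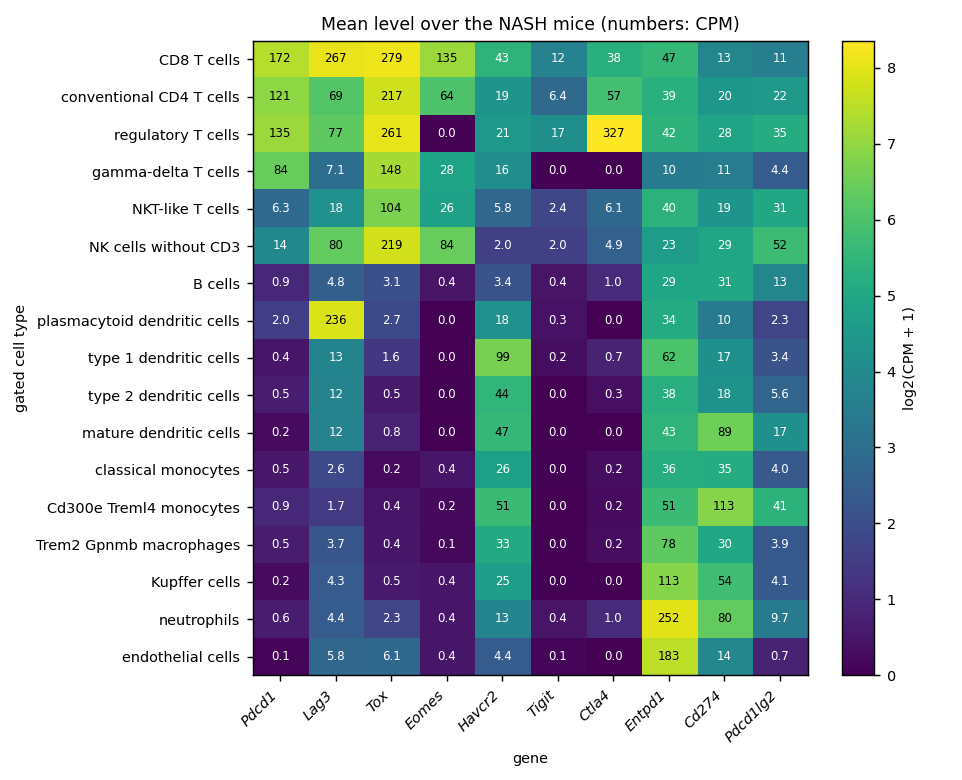
Mean level of each of the 10 genes (columns) in 17 gated cell types (rows) over the NASH mice with at least 20 cells of the type, coloured by log2(CPM + 1) with the CPM printed in each field. Ctla4 is brightest in regulatory T cells, Lag3 in CD8 T cells and plasmacytoid dendritic cells, Entpd1 in neutrophils, Cd274 in Cd300e Treml4 monocytes, and Pdcd1lg2 in NK cells and Cd300e Treml4 monocytes.

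Among the narrower cell types, several genes stood out. Ctla4 stood at 208 to 507 CPM in the regulatory T cells (Foxp3-positive) of the 6 NASH mice and at 276 CPM in those of control replicate 1, and the NASH range did not overlap that of the conventional CD4 T cells, 8.0 to 113 CPM. Eomes was at 0 UMIs in the regulatory T cells of all 8 mice, which allows 9.45 to 66.7 CPM by counting error in the 7 mice with at least 20 such cells. Lag3 stood at 160 and 110 CPM in control plasmacytoid dendritic cells, the interferon-producing cells marked by Siglech, and at 190 to 275 CPM in those of the 5 NASH mice with enough cells, while the 6 NASH values in all myeloid cells lay between 2.42 and 8.33 CPM. Havcr2 was at 52.2 to 144 CPM in type 1 dendritic cells (Xcr1, Clec9a) of the NASH mice and at 146 CPM in those of control replicate 1. Entpd1 stood at 194 to 323 CPM in NASH neutrophils and at 182 CPM in control neutrophils. In endothelial cells, a known site of CD39, it was at 40.9 and 10.0 CPM in the controls and at 88.1, 372 and 89.3 CPM in the 3 NASH mice with at least 20 such cells. The mouse at 372 CPM had 89 endothelial cells, against 580 and 723 in the other two.

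In T cells, Pdcd1 and Tox were higher in NASH than in control mice and Cd274 was lower. Of the 10 genes 2 were called higher, where 2.31% of the 11458 genes tested were, and 1 was called lower, where 3.40% were. The median log2 fold change of the 10 genes was 2.36, against -0.01 over all genes tested. The list was chosen with earlier results of these data known, so this contrast is a description and not a test. T cells and other classes were compared as sums of cells, in which more positive cells and more RNA per positive cell cannot be told apart.

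Pdcd1 stood at 8.57 and 7.24 CPM in control T cells, at 79.5, 167 and 232 CPM in the HFD+F+CCl4 mice and at 21.4, 38.4 and 205 CPM in the WD+F+CCl4 mice. Every NASH mouse lay above both controls, and WD+F+CCl4 replicates 1 and 2 lay closest to them. The log2 fold change was 3.90 ± 0.92 (adjusted p = 0.0376), and summed over mice the NASH level was 16.8 times the control level (95% counting interval 13.5 to 21.1, counting error only). Tox was at 38.0 and 34.7 CPM in control T cells, at 133, 334 and 283 CPM in the HFD+F+CCl4 mice and at 113, 103 and 398 CPM in the WD+F+CCl4 mice. The groups again did not overlap, and the share of all genes with such a separation was not counted. The fold change of Tox was 2.71 ± 0.59 (adjusted p = 0.0275). Both calls rested on few mice. The call for Pdcd1 was lost without WD+F+CCl4 replicate 2 (adjusted p = 0.0514), HFD+F+CCl4 replicate 2 (adjusted p = 0.0704), HFD+F+CCl4 replicate 3 (adjusted p = 0.0644), control replicate 1 (adjusted p = 0.181) or control replicate 2 (adjusted p = 0.137), and that for Tox without HFD+F+CCl4 replicate 2 (adjusted p = 0.0559), HFD+F+CCl4 replicate 3 (adjusted p = 0.0516), control replicate 1 (adjusted p = 0.12) or control replicate 2 (adjusted p = 0.133).

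The other receptors had large fold changes with wide errors and did not pass. The controls alone did not meet the count filter for Lag3, Havcr2 or Tigit. Lag3 was at 6.66 and 4.34 CPM in control T cells, at 57.1, 251 and 340 CPM in the HFD+F+CCl4 mice and at 13.9, 15.3 and 228 CPM in the WD+F+CCl4 mice, a fold change of 4.50 ± 1.31 (adjusted p = 0.0748). Havcr2 differed by 3.84 ± 1.10 (adjusted p = 0.0695). Its levels were 1.06 and 5.79 CPM in the controls, 10.2, 54.9 and 66.2 CPM in the HFD+F+CCl4 mice and 5.47, 2.11 and 25.03 CPM in the WD+F+CCl4 mice, so that 2 of the 3 WD+F+CCl4 mice lay within the control range. Tigit had 6 control UMIs and 127 NASH UMIs, and differed by 3.87 ± 1.05 (adjusted p = 0.0595). Ctla4 was at 15.4 and 18.8 CPM in the controls and at 85.6, 55.8, 88.0, 19.4, 14.2 and 115 CPM in the NASH mice in the order above, and differed by 1.96 ± 0.71 (adjusted p = 0.139). Single mice decided the call for each of these 4 receptors. Lag3 was called without WD+F+CCl4 replicate 3 (3.26, adjusted p = 0.0294), Ctla4 without the same mouse (1.22, adjusted p = 0.0299), Havcr2 without HFD+F+CCl4 replicate 1 (adjusted p = 0.0407), and Tigit without HFD+F+CCl4 replicate 1 (adjusted p = 0.0405) or WD+F+CCl4 replicate 1 (adjusted p = 0.0399). DESeq2 called Lag3, Tigit and Eomes in the same comparison.

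Eomes, a factor of effector and memory CD8 T cells and NK cells, was at 18.5 and 17.4 CPM in control T cells and at 33.8 to 165 CPM in NASH T cells. The 2 groups did not overlap, a separation whose share over all genes was not counted. The fold change of Eomes was 2.00 ± 0.54 (adjusted p = 0.0593). It was called without WD+F+CCl4 replicate 1 (adjusted p = 0.0285) or WD+F+CCl4 replicate 3 (adjusted p = 0.0142). Entpd1 differed by 0.62 ± 0.40 (adjusted p = 0.407). Cd274 was the 1 gene of the 10 called lower in T cells, from 36.4 and 34.7 CPM to 28.5, 17.6, 24.3, 15.9, 14.2 and 17.0 CPM, a fold change of -0.82 ± 0.21 (adjusted p = 0.0494). That call was lost without any 1 of 7 mice, with adjusted p from 0.0615 to 0.321, and held without HFD+F+CCl4 replicate 1. Pdcd1lg2 differed by -0.35 ± 0.26 (adjusted p = 0.484). The makeup of the T cells moved with the groups. CD8 T cells were 10.8% and 13.1% of the control T cells and 14.3% to 45.2% of the NASH T cells, and NKT-like cells (Klrb1c or Ncr1) were 37.7% and 23.3% against 1.69% to 17.0%. Regulatory T cells, the class with the highest Ctla4 level, were 2.11% and 0.949% of the control T cells and 2.69% to 11.4% of the NASH T cells, and their part in the summed Ctla4 level was not tested.

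Pdcd1 and Ctla4 lie on chromosome 1, and the 250 bases before their RefSeq start sites (GRCm38.p6) are shown because both genes are induced through the T cell receptor, whose signal reaches the nucleus through NFAT. The Pdcd1 window is chr1:94052554-94052803 on the minus strand and the Ctla4 window chr1:60908775-60909024 on the plus strand. Capitals mark a match, on either strand, to any of 3 motifs. They are GGAAAA, a strict form of the letters bound by NFAT, the STAT spacing TTCNNNGAA and the interferon response motif. The last is GAAA and GAAA with 2 bases of any kind between them. Shorter forms such as GGAAA were not counted.
Pdcd1: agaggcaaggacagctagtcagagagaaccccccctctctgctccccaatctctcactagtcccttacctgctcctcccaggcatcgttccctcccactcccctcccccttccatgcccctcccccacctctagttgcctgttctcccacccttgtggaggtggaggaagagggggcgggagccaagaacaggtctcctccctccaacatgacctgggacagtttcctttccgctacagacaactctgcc
Ctla4: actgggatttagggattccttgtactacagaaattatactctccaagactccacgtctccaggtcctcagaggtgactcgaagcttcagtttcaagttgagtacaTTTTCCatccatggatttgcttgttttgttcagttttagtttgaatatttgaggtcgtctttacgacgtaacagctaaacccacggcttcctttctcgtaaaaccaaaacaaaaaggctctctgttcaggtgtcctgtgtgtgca
The Ctla4 window held 1 GGAAAA match, on the minus strand at position -145 from the start, and the Pdcd1 window held none of the 3 motifs. Over the 32851 windows of the same length in the table, 20.43% held GGAAAA, 7.02% held TTCNNNGAA and 2.98% held the interferon response motif. Of the other receptor and factor genes, Tigit held a GGAAAA match on the minus strand at position -14, Eomes an interferon response match at position -154, and Havcr2 no match. Lag3 and Tox had no window in the table.

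In CD8 T cells Pdcd1, Lag3, Tox and Ctla4 were high in the same 3 mice, which come from both diets. These mice were HFD+F+CCl4 replicates 2 and 3 and WD+F+CCl4 replicate 3. Havcr2 was high in the first 2 of them. The other 3 NASH mice lay between these and the controls or near the control range. Pdcd1 stood at 4.96 and 9.76 CPM in the controls, at 46.0, 272 and 400 CPM in the HFD+F+CCl4 mice and at 20.9, 23.0 and 267 CPM in the WD+F+CCl4 mice. Lag3 stood at 4.96 and 0 CPM, at 34.5, 479 and 718 CPM, and at 22.5, 26.1 and 324 CPM in the same order. The 6 NASH mice lay above both controls for Pdcd1, a separation whose share over all genes was not counted, and spread widely among themselves. The 0 of Lag3 in control replicate 2 allows up to 29.3 CPM by counting error, which is above the Lag3 levels of WD+F+CCl4 replicates 1 and 2. The Pdcd1 levels of these 2 mice also lie below that limit. Pdcd1 in control replicate 2 came from 1 cell, and in HFD+F+CCl4 replicate 1 from 3 cells. Tox was at 36.7 and 39.0 CPM in the controls, at 57.5, 493 and 451 CPM in the HFD+F+CCl4 mice and at 98.1, 93.6 and 482 CPM in the WD+F+CCl4 mice. Havcr2 was at 95.1 and 124 CPM in HFD+F+CCl4 replicates 2 and 3, at 20.2 CPM in WD+F+CCl4 replicate 3 and at 0 to 11.3 CPM elsewhere. Ctla4 was at 47.6, 72.2 and 91.0 CPM in the same 3 mice and at 3.22 to 11.5 CPM in the other five.

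**Figure D2:**
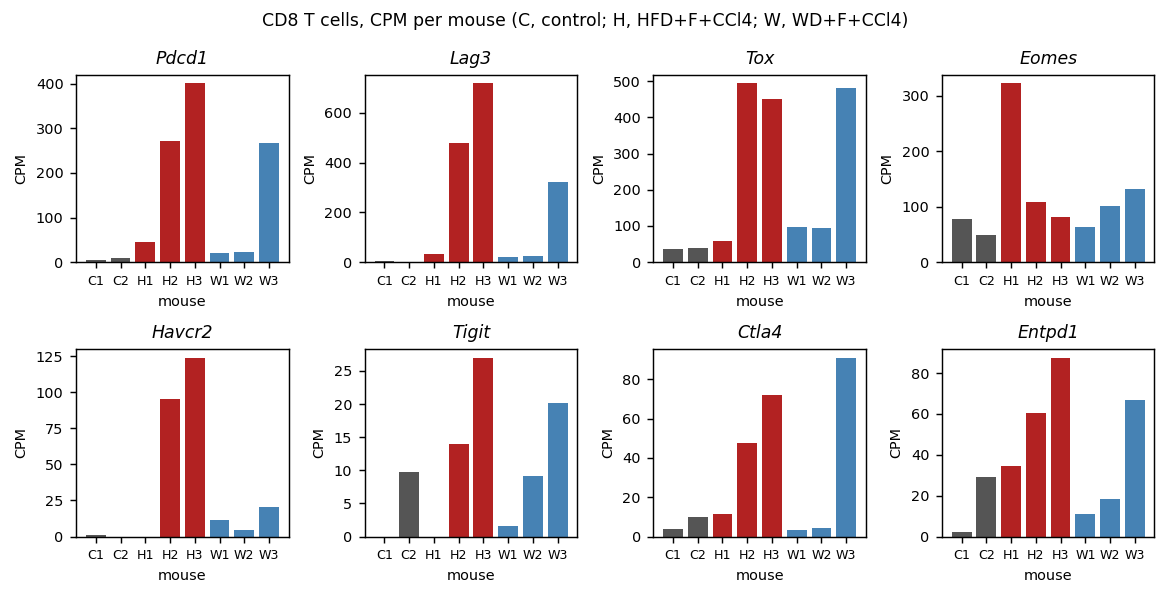
Level (CPM, linear axis from 0) of 8 of the genes in the CD8 T cells of each mouse, 1 bar per mouse, grey for control (C), red for HFD+F+CCl4 (H) and blue for WD+F+CCl4 (W). Pdcd1, Lag3, Tox and Ctla4 are tall in H2, H3 and W3 (Pdcd1 at 272, 400 and 267 CPM), while Eomes is highest in H1, which had 30 CD8 T cells.

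The test of NASH against control in CD8 T cells (380 control cells and 1432 NASH cells) called Havcr2 higher and none of the 10 genes lower, where 1.23% and 2.98% of the 8614 genes tested were called higher and lower. The median fold change of the 10 genes was 3.12, against -0.00 over all genes. This contrast is a description and not a test, since the list was chosen with earlier results known. Havcr2 and Tigit, with 1 control UMI each, passed the count filter only through the NASH mice. So did Pdcd1, Lag3, Ctla4 and Entpd1, whose control UMIs are given below. Havcr2 differed by 4.92 ± 1.20 (adjusted p = 0.0342), with 1 UMI in the control cells. The NASH level over the group was 72.00 times the control level, with a counting interval from 12.8 to 2853. The call was lost without WD+F+CCl4 replicate 1 (adjusted p = 0.0519), HFD+F+CCl4 replicate 2 (adjusted p = 0.0765), HFD+F+CCl4 replicate 3 (adjusted p = 0.0655), control replicate 1 (adjusted p = 0.538) or control replicate 2 (adjusted p = 0.0514). The sparse control counts limit this test: the controls held 6 Pdcd1, 5 Lag3, 5 Ctla4, 5 Entpd1 and 1 Tigit UMIs.

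A further 4 genes lay just outside the threshold in CD8 T cells: Lag3 (5.58 ± 1.51, adjusted p = 0.0539), Pdcd1 (4.78 ± 1.31, adjusted p = 0.0557), Tox (2.87 ± 0.80, adjusted p = 0.0613) and Entpd1 (3.15 ± 0.89, adjusted p = 0.0651). Of these 4, Lag3, Pdcd1 and Entpd1 passed the count filter only through the NASH mice. Each of the 4 was called without WD+F+CCl4 replicate 3, with adjusted p of 0.0216, 0.0133, 0.029 and 0.0407. Lag3, Pdcd1 and Tox were also called without HFD+F+CCl4 replicate 1, with adjusted p of 0.0284, 0.0387 and 0.0219, and Lag3, Pdcd1 and Entpd1 without WD+F+CCl4 replicate 1, with 0.0376, 0.0351 and 0.0406. Lag3 and Pdcd1 were called without WD+F+CCl4 replicate 2 (0.0492 and 0.0436) and Entpd1 without control replicate 2 (0.0337). Tigit (3.58 ± 1.40, adjusted p = 0.177), Ctla4 (3.09 ± 1.25, adjusted p = 0.191), Eomes (0.62 ± 0.43, adjusted p = 0.46), Cd274 (-1.01 ± 0.46, adjusted p = 0.253) and Pdcd1lg2 (-0.15 ± 0.62, adjusted p = 0.937) did not pass.

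Genes of cytotoxic cells moved with the same mice. Gzma and Xcl1, taken as NK markers that the gates did not use, summed to 3461, 4590 and 2331 CPM in the CD8 T cells of HFD+F+CCl4 replicates 2 and 3 and WD+F+CCl4 replicate 3, and to 155 to 1073 CPM in those of the other 5 mice. Both are also made by activated CD8 T cells, and the gate had sent cells with Klrb1c or Ncr1 to the NKT-like class. The cycling genes Mki67 and Top2a summed to 1528, 694 and 707 CPM in the HFD+F+CCl4 mice, to 119, 279 and 446 CPM in the WD+F+CCl4 mice and to 214 and 576 CPM in the controls. The part of either in the levels of the 10 genes was not tested.

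Several receptors met in the same CD8 T cells. Each cell was thinned to 800 UMIs, which left out 1 cell of control replicate 2 and 5 NASH cells, and the receptor genes Pdcd1, Lag3, Havcr2, Tigit and Ctla4 were counted. Cells with UMIs of at least 2 of the 5 genes made up 15.3% and 24.0% of the CD8 T cells in HFD+F+CCl4 replicates 2 and 3 and 10.5% in WD+F+CCl4 replicate 3. In the other 5 mice 1 such cell was found, in WD+F+CCl4 replicate 1 (0.592%). Without thinning the shares were 49.1%, 59.8% and 32.3% in the first 3 mice, 6.67% in HFD+F+CCl4 replicate 1, 2.96% and 1.30% in WD+F+CCl4 replicates 1 and 2, and 0 in both controls. A count of 0 after thinning limits the share of cells in which 2 receptors were detected at 800 UMIs, not the share that expresses them. It allows up to 0.965% in control replicate 1, 4.41% in control replicate 2, 1.30% in WD+F+CCl4 replicate 2 and 10.0% in HFD+F+CCl4 replicate 1, where 30 cells were read. Intervals and limits here and elsewhere cover counting error only.

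**Figure D3:**
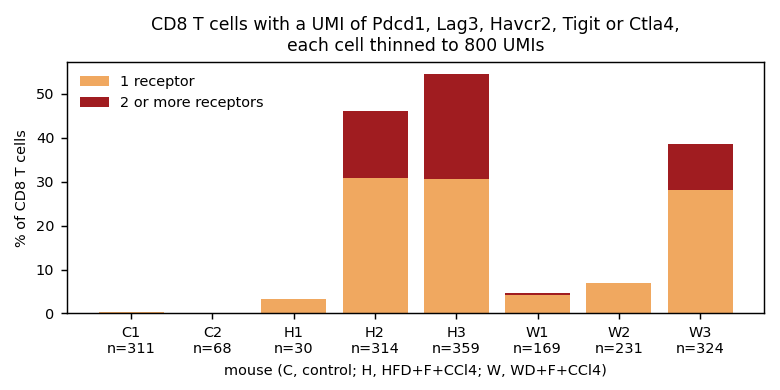
Share of CD8 T cells (%) with a UMI of exactly 1 (orange) or of at least 2 (dark red) of Pdcd1, Lag3, Havcr2, Tigit and Ctla4 after thinning to 800 UMIs per cell, 1 stacked bar per mouse with its number of cells. H2, H3 and W3 reach 15.3%, 24.0% and 10.5% for at least 2 receptors, and C1 and C2 have none.

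By single gene, Pdcd1 UMIs were found after thinning in 22.6%, 27.3% and 18.8% of CD8 T cells in those 3 mice, and Lag3 UMIs in 30.9%, 36.5% and 20.7%. The share with a Pdcd1 UMI was 0 in both controls and in HFD+F+CCl4 replicate 1, and 1.18% and 2.16% in WD+F+CCl4 replicates 1 and 2. In myeloid cells, which serve as the background for free RNA, Pdcd1 UMIs were found in 0 to 0.06% of cells and Lag3 UMIs in 0.13% to 0.54%. Tox UMIs were found in 32.5%, 29.5% and 27.2% of CD8 T cells in the 3 mice and in 2.57% and 2.94% of those in the controls.

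Cells with a Pdcd1 UMI differed from their neighbours in the same liver. In the 3 mice with at least 20 such cells (150, 208 and 123 Pdcd1-positive against 166, 153 and 202 Pdcd1-negative CD8 T cells in HFD+F+CCl4 replicates 2 and 3 and WD+F+CCl4 replicate 3), 6 of the other 9 genes passed the count filter and 4 were called higher in Pdcd1-positive cells, where 3.37% of the 6384 genes tested were. None of the 6 was called lower, where 3.85% of all genes were. Pdcd1 chose the cells and was left out of the test. Positive cells were deeper, with 3816, 4280 and 2683 UMIs per cell against 3013, 3143 and 2283, and the part of depth was not tested beyond the scaling to library size.

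Havcr2 stood at 138, 165 and 24.2 CPM in positive cells and at 46.0, 47.8 and 17.3 CPM in negative cells of the 3 mice, a difference of 1.48 ± 0.23 (adjusted p = 0.000249). Lag3 stood at 577, 933 and 406 CPM against 368, 320 and 265 CPM (0.88 ± 0.16, adjusted p = 0.00103). Tox stood at 575, 596 and 570 CPM against 400, 183 and 418 CPM (0.80 ± 0.18, adjusted p = 0.00641). All 3 genes were higher in positive cells in 3 of 3 mice. Entpd1 was also called, at 76.9, 102 and 97.0 CPM against 42.0, 60.3 and 45.5 CPM (0.81 ± 0.21, adjusted p = 0.0217). Ctla4 (0.67 ± 0.22, adjusted p = 0.0771) and Eomes (0.23 ± 0.18, adjusted p = 0.556) did not pass, and Eomes was lower in positive cells in 1 of 3 mice. Without HFD+F+CCl4 replicate 2 none of the 4 calls held, with adjusted p from 0.0702 to 0.171, and the call for Entpd1 was also lost without HFD+F+CCl4 replicate 3 (adjusted p = 0.0504) or WD+F+CCl4 replicate 3 (adjusted p = 0.0696).

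**Figure D4:**
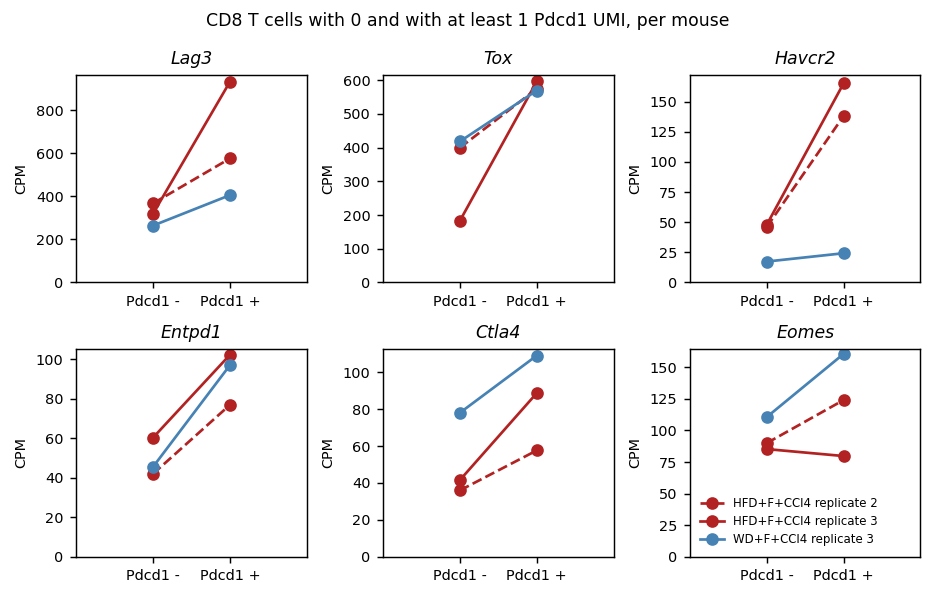
Level (CPM, axes from 0) of 6 of the genes in CD8 T cells with 0 (left) and with at least 1 Pdcd1 UMI (right), joined for each of the 3 mice (red dashed, HFD+F+CCl4 replicate 2; red solid, HFD+F+CCl4 replicate 3; blue, WD+F+CCl4 replicate 3). Every line slopes up except that of Eomes in HFD+F+CCl4 replicate 3.

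The other genes that were highest by fold in Pdcd1-positive cells were Zgrf1 (1.95), Arhgap11a (1.88), Klri2 (1.84), Map2 (1.83), Ccl3 (1.63), Nr4a2 (1.62), Clgn (1.61), Cdc6 (1.60), Plk1 (1.57) and Rgs16 (1.55). Ccl3 encodes a chemokine of activated T cells and went from 436 to 1449 CPM on average over the 3 mice. Nr4a2 encodes a nuclear receptor induced by T cell receptor signals, and Cdc6, Plk1 and Arhgap11a serve DNA replication and mitosis. The largest falls included Dapl1 (-4.16), Cmah (-4.11), Ccr7 (-4.09) and Ly6c2 (-3.98). Ccr7 encodes a chemokine receptor that brings naive and central memory T cells into lymph nodes. Of the 53 genes of the wider checkpoint and exhaustion lists, 34 were tested here, 8 were higher and 3 lower, beside 3.37% and 3.85% of all 6384 genes. The higher genes were led by Nr4a2, Tox2 (1.47), the co-stimulatory receptor gene Tnfrsf9 (1.28) and the receptor gene Cd244a (1.17). The lower genes were Lef1 (-3.43) and Tcf7 (-2.53), which encode factors of naive and stem-like T cells, and the interferon-gamma receptor gene Ifngr1 (-1.25).

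Conventional CD4 T cells were tested without HFD+F+CCl4 replicate 1, which had 16 of them. Tox was called higher in NASH, at 37.9 and 40.6 CPM in the controls and 229, 170, 150, 108 and 428 CPM in the 5 NASH mice, a fold change of 2.49 ± 0.56 (adjusted p = 0.0279). It was the 1 called of 7 genes that passed the filter, where 1.09% of the 5030 genes tested were called higher and 1.47% lower. The call was lost without control replicate 1 (adjusted p = 0.379) or control replicate 2 (adjusted p = 0.0596), and control replicate 2 had 27 cells. Pdcd1 differed by 2.55 ± 0.64 (adjusted p = 0.0514), at 18.9 and 40.6 CPM against 173, 69.6, 42.9, 96.1 and 222 CPM. It was called without WD+F+CCl4 replicate 1 (adjusted p = 0.0133), WD+F+CCl4 replicate 3 (adjusted p = 0.00868), HFD+F+CCl4 replicate 2 (adjusted p = 0.0342) or HFD+F+CCl4 replicate 3 (adjusted p = 0.00944). Lag3 differed by 3.84 ± 1.13 (adjusted p = 0.1), with 6 control UMIs, and was called without WD+F+CCl4 replicate 1 (adjusted p = 0.0329) or HFD+F+CCl4 replicate 3 (adjusted p = 0.0356). Ctla4 differed by 1.19 ± 0.72 (adjusted p = 0.496). The controls alone did not meet the count filter for Tox, Pdcd1, Lag3 or Ctla4.

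WD+F+CCl4 replicate 3 stood apart among the CD4 T cells as well. Its conventional CD4 T cells held Eomes at 239 CPM, while those of the other 4 NASH mice lay at 8.0 to 45.8 CPM and those of the controls at 2.58 and 0 CPM. The 0 in control replicate 2 allows up to 60.9 CPM by counting error, above the levels of those other 4 NASH mice. Havcr2 did not reach the count filter in these cells and was not tested. It had 0 control UMIs and 38 NASH UMIs. Summed over mice, that is at least 9.35-fold higher against a floor of 3 counts over the control group. The bound does not cover the spread between mice. Regulatory T cells held Pdcd1 at 44.5 to 214 CPM in the 6 NASH mice and at 17.5 CPM in control replicate 1, and Tox at 178 to 350 CPM against 70.0 CPM. Gamma-delta T cells held Tox at 116 to 165 CPM in the 4 NASH mice with enough cells and at 34.2 CPM in control replicate 1, and had no Ctla4 UMI in any mouse, which allows 9.33 to 34.8 CPM in the 5 mice with enough cells. NKT-like cells were low in the receptors, with Pdcd1 between 0 and 23.4 CPM, and held Tox at 91.2 to 131 CPM in 5 NASH mice against 43.4 and 31.0 CPM in the controls. Among the mice with at least 20 cells of the type, every NASH mouse thus lay above both controls for Tox in NKT-like T cells. In regulatory and gamma-delta T cells every such NASH mouse lay above control replicate 1. Control replicate 2 had 5 and 11 of these cells and was left out. The share of all genes with such a separation was not counted.

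NK cells without CD3 also held more Tox in NASH. Tox stood at 65.1 and 63.4 CPM in the control cells, at 255, 243 and 248 CPM in the HFD+F+CCl4 mice and at 117, 178 and 272 CPM in the WD+F+CCl4 mice. The fold change was 1.72 ± 0.35 (adjusted p = 0.00567), and Tox was the 1 called of the 3 genes that passed the filter, where 2.61% of the 3184 genes tested were called higher and 2.58% lower. The call held in 7 of the 8 fits that left out a mouse and was lost without control replicate 1 (adjusted p = 0.197), which leaves 33 control cells. TOX is needed for NK cell development, and EOMES marks mature conventional NK cells as against type 1 innate lymphoid cells. Eomes was at 248 and 148 CPM in the controls and at 17.0, 132, 94.6, 117, 53.9 and 87.3 CPM in the NASH mice. The groups did not overlap, but the change of -1.28 ± 0.38 did not pass (adjusted p = 0.0623). It was called without HFD+F+CCl4 replicate 2 (adjusted p = 0.039) or control replicate 2 (adjusted p = 0.0286). Lag3 differed by 2.15 ± 0.68 (adjusted p = 0.0727), with 15.9 and 21.1 CPM in the controls and 34.5 to 179 CPM in the NASH mice. The controls alone did not meet the count filter for Tox or Lag3. Pdcd1lg2 did not reach the count filter in NK cells. Its 12 control UMIs stood for 17.5 and 21.1 CPM and its 54 NASH UMIs for 59.6, 90.2, 43.7, 32.2, 59.3 and 29.1 CPM. These levels did not overlap, but the 33 NK cells of control replicate 2 held 47286 UMIs of all genes. Its level thus rests on very few Pdcd1lg2 UMIs. The share of all genes with such a separation was not counted.

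The ligand genes lie next to each other on chromosome 19 of GRCm38 (GENCODE M21), Cd274 from 29367455 to 29388095 and Pdcd1lg2 from 29410919 to 29471161, both on the plus strand with 22823 bases between them. The 250 bases before each RefSeq start are shown because both genes are known to answer to cytokines. The Cd274 window is chr19:29367188-29367437 and the Pdcd1lg2 window chr19:29410669-29410918, both in GRCm38.p6 and on the plus strand, with the same 3 motifs in capitals.
Cd274: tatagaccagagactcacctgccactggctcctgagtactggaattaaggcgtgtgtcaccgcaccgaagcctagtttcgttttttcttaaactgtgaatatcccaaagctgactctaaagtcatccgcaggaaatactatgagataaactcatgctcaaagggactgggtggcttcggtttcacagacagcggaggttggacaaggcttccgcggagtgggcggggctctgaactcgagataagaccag
Pdcd1lg2: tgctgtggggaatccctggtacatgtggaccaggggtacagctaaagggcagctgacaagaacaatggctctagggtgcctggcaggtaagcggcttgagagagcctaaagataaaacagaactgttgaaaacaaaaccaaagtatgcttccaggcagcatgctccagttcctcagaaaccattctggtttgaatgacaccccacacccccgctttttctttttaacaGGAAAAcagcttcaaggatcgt
Pdcd1lg2 held 1 GGAAAA match at position -22 and Cd274 held no match, so the neighbours did not share any of the 3 motifs in these windows.

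In myeloid cells Pdcd1lg2 was higher in NASH and Eomes lower. Among the 9 genes that passed the filter, 1 was called higher, where 4.08% of the 16883 genes tested were, and 1 lower, where 4.19% were. Pdcd1lg2 stood at 3.34 and 3.94 CPM in control myeloid cells, at 15.0, 14.0 and 28.4 CPM in the HFD+F+CCl4 mice and at 15.0, 13.2 and 10.1 CPM in the WD+F+CCl4 mice. The groups did not overlap, a separation whose share over all genes was not counted. The fold change of Pdcd1lg2 was 2.21 ± 0.57 (adjusted p = 0.0479), with 9 control UMIs. The call was lost without WD+F+CCl4 replicate 1 (adjusted p = 0.0706), WD+F+CCl4 replicate 2 (adjusted p = 0.0787), WD+F+CCl4 replicate 3 (adjusted p = 0.057), control replicate 1 (adjusted p = 0.515) or control replicate 2 (adjusted p = 0.132). Cd274 stood at 22.1 and 47.3 CPM in the controls and at 74.9, 36.8, 68.0, 44.0, 55.2 and 50.4 CPM in the NASH mice, a change of 1.01 ± 0.35 that did not pass (adjusted p = 0.108). It was called without HFD+F+CCl4 replicate 2 (adjusted p = 0.0323).

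Patrolling monocytes, gated on Cd300e and Treml4, held 65.9% of the 3406 Pdcd1lg2 UMIs and 51.6% of the 11569 Cd274 UMIs of the NASH myeloid cells. Pdcd1lg2 stood in them at 40.05, 47.7 and 54.4 CPM in the HFD+F+CCl4 mice and at 41.5, 32.6 and 29.8 CPM in the WD+F+CCl4 mice, and Cd274 stood at 92.7 to 154 CPM. Classical monocytes (Ly6c2, Chil3, F13a1) of the same mice held Pdcd1lg2 at 2.17 to 6.94 CPM and Cd274 at 27.4 to 64.8 CPM, and neither range overlapped that of the patrolling monocytes. Macrophages marked by Trem2 and Gpnmb held Pdcd1lg2 at 1.45 to 9.26 CPM and Cd274 at 20.4 to 44.7 CPM. Mature dendritic cells (Ccr7, Fscn1, Ccl22) held Cd274 at 49.3 to 141 CPM and Pdcd1lg2 at 7.06 to 30.8 CPM, and neutrophils held Cd274 at 44.9 to 118 CPM. By mean over the NASH mice Cd274 was highest in patrolling monocytes, then in mature dendritic cells and neutrophils, and the ranges of these 3 types overlapped.

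**Figure D5:**
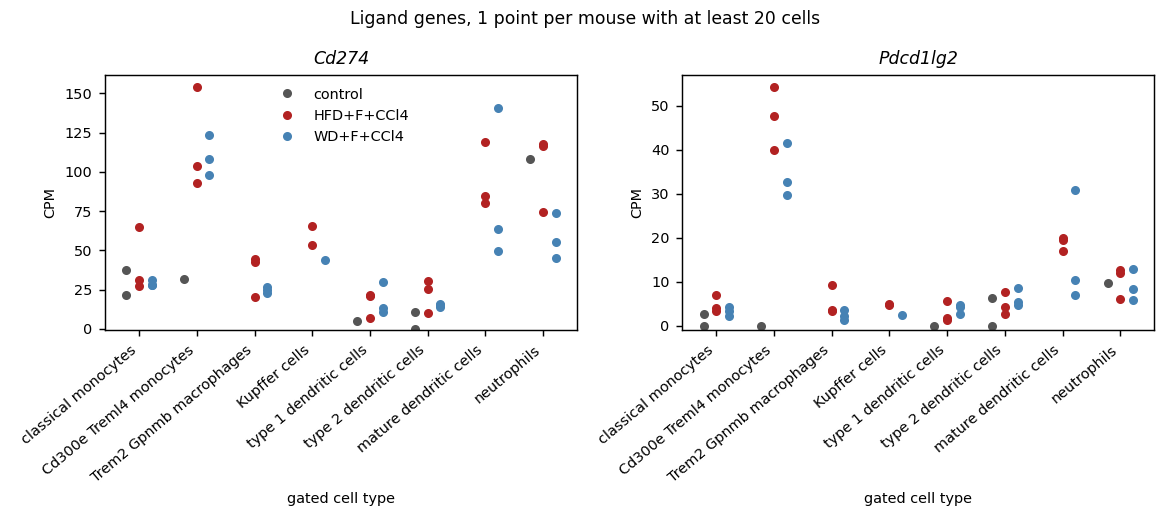
Level (CPM) of Cd274 (left) and Pdcd1lg2 (right) in 8 gated cell types, 1 point per mouse with at least 20 cells, grey for control, red for HFD+F+CCl4 and blue for WD+F+CCl4. All 6 NASH points of Cd300e Treml4 monocytes lie at 29.8 CPM or more for Pdcd1lg2, while classical monocytes of every mouse lie at or below 6.94 CPM.

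The makeup of the myeloid class moved with the groups. Patrolling monocytes were 5.57% and 0.901% of control myeloid cells and 21.8% to 44.3% of NASH myeloid cells, classical monocytes 48.5% and 41.9% against 3.19% to 19.1%, and Trem2 Gpnmb macrophages 1.79% and 0.450% against 13.2% to 40.8%. The 28 patrolling monocytes of control replicate 1 had 0 Pdcd1lg2 UMIs, which allows up to 31.8 CPM by counting error. Of the 6 NASH mice 5 lay above that limit and 1 below it, and no test was run within these cells. They held 3 Cd274 UMIs, at 31.8 CPM. Within classical monocytes the 2 controls held Pdcd1lg2 at 2.79 and 0 CPM and Cd274 at 21.4 and 37.6 CPM, inside or next to the NASH ranges. The part of the makeup in the change of the summed cells was not tested.

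Eomes in myeloid cells fell from 3.76 and 7.89 CPM (11 UMIs) to 0.093 to 0.312 CPM, by -4.65 ± 0.67 (adjusted p = 0.00538), and the call was lost without control replicate 1 (adjusted p = 0.124). Both controls met the count filter for Eomes, while the 38 UMIs of the NASH mice left their levels near or below it. Lymphocyte mRNAs moved with Eomes. Gzma and Xcl1 summed to 26.7 and 162 CPM in control myeloid cells and to 1.72 to 8.37 CPM in NASH myeloid cells, and Trbc2, Cd247 and Lck to 36.8 and 205 CPM against 2.53 to 7.45 CPM. Their part in the result was not tested. Havcr2, the myeloid member of the receptor set, was at 50.5 and 43.4 CPM in control myeloid cells and at 28.9 to 54.5 CPM in NASH myeloid cells, and differed by -0.16 ± 0.23 (adjusted p = 0.715), a sign that turned to 0.24 without control replicate 1. Entpd1 was at 45.5 and 35.5 CPM in the controls and at 44.9 to 84.6 CPM in NASH, and differed by 0.57 ± 0.26 (adjusted p = 0.216). Among the myeloid subsets of the NASH mice Entpd1 was lowest in classical monocytes, at 26.9 to 48.6 CPM, and stood at 59.5 to 106 CPM in Trem2 Gpnmb macrophages and at 89.1 to 133 CPM in the Kupffer cells of 3 mice.

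Dendritic cells (mature, type 1 and type 2 together, 184 control and 3693 NASH cells) showed no called change in the 5 genes that passed the filter, where 0.958% of the 11691 genes tested were called higher and 1.55% lower. None of the 5 had an unadjusted p under 0.05. Cd274 was at 12.2 and 0 CPM in the controls and at 39.8, 14.0, 41.4, 16.2, 16.7 and 31.8 CPM in the NASH mice, with a fold change of 1.17 ± 0.71 (adjusted p = 0.439). The 0 in control replicate 2 allows up to 54.4 CPM by counting error, above all 6 NASH values. Havcr2 differed by -0.44 ± 0.25 (adjusted p = 0.406). The sign turned to 1.02 without control replicate 1, which leaves 38 control cells.

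The NASH effect itself differed between T cells and myeloid cells for 4 genes. The test of that difference called Tox (4.48 ± 1.05, adjusted p = 0.0475) and Eomes (6.57 ± 0.66, adjusted p = 0.00189) as more positive in T cells, and Cd274 (-1.81 ± 0.29, adjusted p = 0.00736) and Pdcd1lg2 (-2.63 ± 0.44, adjusted p = 0.0102) as more positive in myeloid cells. Of the 13427 genes tested, 1.36% and 1.03% were called in the 2 directions, and the 2 sums of a mouse came from 1 library. Tox and Eomes thus stood on the opposite side of this contrast from the 2 ligand genes. The myeloid values of Eomes, Tox and Pdcd1lg2 rest on 11, 5 and 9 control UMIs. The makeup of the myeloid class moved with the groups, as given above, and its part in the ligand results was not tested. The control myeloid cells also held more of the lymphocyte mRNAs given with Eomes above, and the part of those mRNAs was not tested. Havcr2 differed by 4.39 ± 1.24 (adjusted p = 0.0938). The call for Tox was lost without WD+F+CCl4 replicate 1 (adjusted p = 0.0622), WD+F+CCl4 replicate 2 (adjusted p = 0.0733), HFD+F+CCl4 replicate 2 (adjusted p = 0.073), HFD+F+CCl4 replicate 3 (adjusted p = 0.0585), control replicate 1 (adjusted p = 0.377) or control replicate 2 (adjusted p = 0.104). The calls for Cd274 and Pdcd1lg2 were lost without control replicate 1 (adjusted p = 0.352 and 0.462).

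No difference between the 2 models was called for any of the 10 genes. In the comparison of WD+F+CCl4 with HFD+F+CCl4 mice, edgeR called 0% of the genes tested in each of the 6 cell classes, T cells, CD8 T cells, conventional CD4 T cells, NK cells, myeloid cells and dendritic cells. DESeq2 called 0, 1, 0, 0, 109 and 12 genes and 431, 580, 145, 275, 1042 and 613 genes had an unadjusted p under 0.05 in the same order. Among the 10 genes, 1, 2, 0, 0, 1 and 1 had such a p, the last pair being Lag3 in myeloid cells and Havcr2 in dendritic cells. In CD8 T cells Havcr2 differed by -2.74 ± 0.53 (unadjusted p = 0.000135, adjusted p = 0.166) and Lag3 by -1.72 ± 0.79 (unadjusted p = 0.0465, adjusted p = 0.736), lower in WD+F+CCl4. Pdcd1 differed by -1.23 ± 0.69 (adjusted p = 0.779) and Tox by -0.57 ± 0.57 (adjusted p = 0.916). These values turned on 1 mouse. Without WD+F+CCl4 replicate 3, Pdcd1 was called at -3.41 (adjusted p = 0.00963), Lag3 at -3.99 (adjusted p = 0.0122) and Havcr2 at -3.38 (adjusted p = 0.0123), and without HFD+F+CCl4 replicate 1 Havcr2 was called at -2.96 (adjusted p = 0.00961). In all T cells Havcr2 differed by -2.00 ± 0.73 (unadjusted p = 0.0208, adjusted p = 1). Its levels in dendritic cells were 84.0, 69.6 and 71.2 CPM in the HFD+F+CCl4 mice and 43.8, 43.1 and 42.7 CPM in the WD+F+CCl4 mice, and in type 1 dendritic cells 144, 112 and 125 CPM against 73.8, 89.6 and 52.2 CPM. The 2 models did not overlap in either, and the fit over dendritic cells did not call the difference. Type 1 dendritic cells are a part of the dendritic cells, so the 2 readings are not independent. The share of all genes with such a separation was not counted.

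The wider lists, 53 genes of co-inhibitory and co-stimulatory receptors, ligands and enzymes, transcription factors and the interferon-gamma axis, were read in the same fits. In T cells 47 were tested, 4 were higher in NASH and 3 lower, beside 2.31% and 3.40% of all 11458 genes. The higher ones were Nr4a2 (5.18 ± 1.10, adjusted p = 0.0249), Tox2 (4.24 ± 1.09, adjusted p = 0.0497), Tnfrsf4 (2.51 ± 0.36, adjusted p = 0.00486), which encodes the co-stimulator OX40, and Cd200r1 (2.29 ± 0.56, adjusted p = 0.0414). The lower ones included Cd40lg (-1.58 ± 0.29), the helper ligand of CD4 T cells, and Jak2 (-1.10 ± 0.17), a kinase of the interferon-gamma signal known to induce Cd274. By list, 1 of 9 co-inhibitory receptors, 1 of 8 co-stimulatory receptors and 2 of 14 transcription factors were higher.

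In CD8 T cells 40 of the 53 genes were tested, 1 was higher (Nr4a2, 4.40 ± 1.00, adjusted p = 0.0241) and 5 were lower, led by Cd40lg (-3.26 ± 0.72), Lef1 (-2.33 ± 0.50), Tcf7 (-2.23 ± 0.39) and Bach2 (-1.59 ± 0.38). Over all 8614 genes the shares were 1.23% higher and 2.98% lower. Lef1, Tcf7 and Bach2 encode factors of naive and memory T cells. In conventional CD4 T cells 32 were tested, beside 1.09% higher and 1.47% lower of all genes. Tnfrsf4 (2.96 ± 0.35) and Prdm1 (2.65 ± 0.56), the gene of the effector factor BLIMP-1, were higher, and Cd160 (-3.23 ± 0.53) and Lef1 (-1.65 ± 0.38) were lower. In NK cells 20 were tested, Cd200r1 (2.02 ± 0.51) and Tnfrsf9 (1.49 ± 0.40) were higher and Irf1 (-1.04 ± 0.29) was lower, beside 2.61% and 2.58% of all genes.

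In myeloid cells 50 of the 53 genes were tested, 4 were higher and 11 lower, beside 4.08% and 4.19% of all 16883 genes. Cd38, an ectoenzyme that consumes NAD, was higher by 2.74 ± 0.54 (adjusted p = 0.0172), the collagen receptor gene Lair1 by 2.19 ± 0.20 (adjusted p = 0.000987), Id3 by 0.93 ± 0.24 and Batf by 0.78 ± 0.19. The 4 largest falls, Lef1 (-5.94), Cd160 (-5.55), Cd96 (-4.59) and Cd226 (-3.66), are genes known from T and NK cells, whose marker sums in control myeloid cells are given with Eomes above. In dendritic cells 38 were tested, Lair1 was higher (2.20 ± 0.32) and Cd226 lower (-1.88 ± 0.43), beside 0.958% and 1.55% of all genes.

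The genes whose level ran most like each member over the 130 combinations of gated cell type and mouse are given as a description, since the points share libraries and depth. Pdcd1 ran with Crmp1 (Pearson r = 0.84) and Tox (0.81), Tox with Cd96, Gata3 and Sytl2 (each 0.91), and Eomes with the perforin gene Prf1 (0.86), Sytl3 and Fasl (each 0.85). Ctla4 ran with Neb (0.84), Atcay (0.82) and Izumo1r (0.81), Tigit with Gm20275 (0.74), Ctla4 and Pdcd1 (each 0.68), and Lag3 with 6720464F23Rik (0.69), 9430087J23Rik (0.68) and Sla2 (0.62). The genes of myeloid cells had looser neighbours. Havcr2 ran with Eps8 (0.71), Atox1 and Tnip3 (each 0.70), Pdcd1lg2 with Limd2 (0.69), Rasgrp1 (0.62) and Akna (0.59), Entpd1 with Ninj1 (0.64), Cd9 (0.61) and St3gal4 (0.59), and Cd274 with Gca, Bcl3 and Il1rn (each 0.60).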

How the data were processed

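Per the labels and the file headers, the authors converted reads with bcl2fastq 2.20 and deposited 1 matrix of UMI counts, unnormalized, made with Cell Ranger on the GRCm38 mouse genome (the methods also name GRCh38, and the Cell Ranger version differs between methods and file). The barcode suffix gives the mouse. Barcodes with over 500 genes and under 25% mitochondrial UMIs were kept, which is the filter the study states, and no doublet caller was run. Cells were gated on markers, and the UMI counts of a class were summed per mouse, with the mouse as the replicate. Sums from mice with at least 20 cells were tested with edgeR 4.0.16 (TMM, filterByExpr with a minimum of 10, quasi-likelihood test, Benjamini-Hochberg over all genes, threshold 0.05), and DESeq2 1.42.0 served as an alternative. Leiden clusters came from scanpy 1.11.5 and leidenalg 0.10.2. NASH means the average of both models. The edgeR script was run on simulated counts with a fixed dispersion. That run does not measure its power at the spread between mice seen here. Total UMIs were 36699315 and 6135827 in the controls and 46275590 to 64855024 in the NASH libraries.

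The 10 genes and all other lists were chosen with earlier results of these data known. Named beside the 10 genes were, of the 53 pathway genes, up to 4 per direction and fit with the largest called fold change, and in the Pdcd1 split the 10 largest rises and 5 largest falls with a mean log2 CPM over 3 and the same direction in every mouse, except that 3 genes these rules name are not reported here. The labels do not say whether same-numbered mice were housed or processed together. Other alternatives were a filter of 1 UMI, 1 model at a time, a replicate block, other gates, other cell filters, and each mouse left out.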

Additional observations from a re-analysis of the deposited data

Results flagged for a closer look

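The test of the NASH effect in T cells against that in myeloid cells singled out 4 of the 10 genes. For these the difference between the 2 effects itself passed the threshold (edgeR, adjusted over all genes tested). Of the 13427 genes tested, 1.36% were called more positive in T cells and 1.03% more positive in myeloid cells. Single mice decided the calls for Tox, Cd274 and Pdcd1lg2, as given above. Tox differed by 4.48 on the log2 scale and Eomes by 6.57, more positive in T cells. Cd274 differed by -1.81 and Pdcd1lg2 by -2.63, more positive in myeloid cells. The myeloid value of Pdcd1lg2 rests on 9 control UMIs. Patrolling monocytes held 65.9% of the Pdcd1lg2 and 51.6% of the Cd274 UMIs of NASH myeloid cells. They were 21.8% to 44.3% of NASH and 0.901% to 5.57% of control myeloid cells, and the part of this makeup was not tested. The myeloid values of Eomes and Tox rest on 11 and 5 control UMIs, in control cells that also held more lymphocyte mRNAs than NASH myeloid cells did, and the part of those mRNAs was not tested.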

How the results depend on the processing

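The 10 genes gave 1047 values across fits and alternatives, counted only in the comparisons for which a gene was listed for reporting. Of these values 862 kept their direction and their side of the threshold, 89 gained a call, 85 lost one and 11 turned in sign. Counts of genes called moved by over 1.5 times in 81 of 258 cases. The control side is the most limited, since its 725 myeloid cells and 380 CD8 T cells held few UMIs of these genes. Correlations of same-numbered mice, after each group was centred, were -0.16 to 0.18 in T cells, -0.08 to 0.10 in CD8 T cells and -0.44 to 0.06 in myeloid cells, over 0.1 in 1, 1 and 0 of 7 pairs. Centring groups of 2 or 3 mice ties their values together, and the 2 controls become mirror images. These correlations therefore cannot decide whether same-numbered mice deviate together.

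For NASH against control the replicate block changed the count of calls from 654 to 214 in T cells, 1395 to 531 in myeloid cells, 363 to 96 in CD8 T cells, 129 to 50 in conventional CD4 T cells and 165 to 95 in NK cells. For WD+F+CCl4 against HFD+F+CCl4, with 0 calls in each class, the block gave 1 in myeloid cells, 6 in CD8 T cells, 1 in NK cells and 4 in dendritic cells. DESeq2 called 186 genes in CD8 T cells, 676 against 321 in the test between classes, 82 against 461 in the Pdcd1 split, and for the models 109 in myeloid cells, 1 in CD8 T cells and 12 in dendritic cells. With every gene of 1 UMI tested, NASH calls were 1744 in T cells, 937 in CD8 T cells, 399 in conventional CD4 T cells, 365 in NK cells and 966 against 293 in dendritic cells, the test between classes gave 854, and the models gave 133, 12, 149, 21, 33 and 355 in T, myeloid, CD8, conventional CD4, NK and dendritic cells. With HFD+F+CCl4 and control mice only, NASH calls were 191 in T cells, 417 in myeloid cells, 59 in NK cells, 135 in dendritic cells and 120 between classes. With WD+F+CCl4 and control mice only they were 281 in T cells, 164 in CD8 T cells and 210 between classes. With other lists held below the own list in place of absent, they were 1183 in T cells, 202 in conventional CD4 T cells, 456 in dendritic cells and 550 between classes, and 1 for the models in dendritic cells. At 3 UMIs for a class the models gave 3 calls in CD8 T cells. With Leiden clusters, NASH calls were 4216 in T cells and 2145 in myeloid cells.

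With 1 mouse left out, NASH calls ranged over 334 to 906 in T cells, 207 to 1440 in myeloid cells, 28 to 493 in CD8 T cells, 13 to 214 in conventional CD4 T cells, 87 to 214 in NK cells and 0 to 325 in dendritic cells. The model comparison gave 0 to 2, 0 to 2, 0 to 120, 0 to 5, 0 to 5 and 0 to 9 in the same order. The test between classes gave 177 to 331, T cells against myeloid cells 6688 to 8301 and the Pdcd1 split 77 to 486.

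The sign turned for 4 values. Havcr2 in myeloid cells went to 0.0185 with HFD+F+CCl4 and control mice only, 0.0508 with the looser gate and 0.33 without the top 10% of cells by UMIs, and ranged from -0.30 to 0.24 with 1 mouse left out, the highest without control replicate 1. Pdcd1lg2 in CD8 T cells went to 0.21, 0.29 and 0.0388 in the first 3 of these, and ranged from -0.51 to 0.0182, the highest without WD+F+CCl4 replicate 2. Pdcd1lg2 in T cells ranged from -0.60 to 0.21, the highest without control replicate 1. Havcr2 in dendritic cells went to 0.16 without the top 10% and ranged from -0.69 to 1.02, the highest without control replicate 1. None of these main values was called. The cause was not tested.

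Other settings ended further calls, of which these are examples. In T cells the call for Pdcd1 was lost with WD+F+CCl4 and control mice only (3.50, adjusted p = 0.116) and with Leiden clusters (2.81, adjusted p = 0.0741), and those for Tox (2.15, adjusted p = 0.0605) and Cd274 (adjusted p = 0.132) under the replicate block. The block also ended the calls for Tox in conventional CD4 T cells (1.94, adjusted p = 0.27), Havcr2 in CD8 T cells (3.94, adjusted p = 0.182) and Pdcd1lg2 in myeloid cells (2.10, adjusted p = 0.117). DESeq2 lost the calls for Havcr2 in CD8 T cells (adjusted p = 0.157) and for Tox and Entpd1 in the Pdcd1 split (adjusted p = 0.34 and 0.331). With Leiden clusters Eomes in myeloid cells was no longer called (-2.30, adjusted p = 0.241).

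Without thinning, the mean share of NASH T cells with a UMI was 18.9% for Pdcd1, 17.2% for Lag3, 32.8% for Tox, 12.1% for Eomes, 5.64% for Havcr2, 2.41% for Tigit and 10.9% for Ctla4, against 8.99%, 9.02%, 15.1%, 5.02%, 2.00%, 0.905% and 4.62% thinned. In myeloid cells it was 17.0% for Havcr2, 22.4% for Entpd1, 19.8% for Cd274 and 6.88% for Pdcd1lg2, against 3.53%, 4.52%, 5.28% and 2.05%.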
